A study of Mus musculus with 18 samples.

Results

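The response of beta cells to the polyamine analogue DENSpm in the absence of inflammatory signals was read from 6 RNA-seq libraries of MIN6 cells, out of 18 libraries in the study. MIN6 is an insulin-producing line established from a mouse insulinoma and was grown here in high-glucose medium. The cells of 3 libraries had been exposed to 10 µM DENSpm for 24 h and those of the other 3 to vehicle, and the label of the treatment decided which libraries belong to the comparison. No library of either group received cytokines. Further values come from 3 libraries of cells given DENSpm together with a cytokine mix (IL-1 beta, TNF alpha and interferon gamma), 3 given vehicle with that mix, and 3 given 5 mM DFMO without cytokines. The labels call the 3 libraries of a group biological replicates and do not say whether they came from separate cultures or days, so the spread behind each p-value, estimated over all libraries in a fit, may be technical. All groups thus come from a single transformed line. In bulk RNA, fewer cells of a type and less RNA per cell cannot be told apart.

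Polyamines are small cations that bind RNA and support translation and growth. Cells make putrescine from ornithine with ornithine decarboxylase (Odc1), extend it to spermidine and spermine, and break these down through the acetyltransferase Sat1 and the oxidases Smox and Paox. DENSpm is an analogue of spermine that is known to raise Sat1 and Smox activity and lower Odc1, so that natural polyamines are depleted, whereas DFMO blocks Odc1 directly.

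Counts in these libraries lay mostly in rows whose gene has another gene on the opposite strand. Rows with exons opposite exons of another gene held between 80.3% and 83.3% of the counts of each of the 6 libraries. Several partner rows were nearly empty: the row of Txnip held 0 counts in all 6 libraries while that of Gm15441 on the other strand held 125 to 602. This pattern is the one that reads assigned to the wrong strand would leave, and the sources used here do not give the strand setting. A row with exons facing another gene is given with that gene's symbol too, and no change is assigned to either gene.

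The row of Gm15441, which was lower with DENSpm, lies opposite Txnip. This gene encodes thioredoxin-interacting protein, an inhibitor of thioredoxin. In beta cells Txnip is known to be raised by glucose through the factors ChREBP and MondoA, which bind a carbohydrate response element made of paired E-box-like motifs. Its promoter is shown because this row carries 1 of the 2 most reproducible changes of the comparison, and because it holds such an element. The RefSeq window runs from 250 bases before to 50 bases after the start of Txnip on the plus strand of GRCm38.p6, chr3:96557707-96558006. The capitals mark 2 copies of CACGNG separated by 5 bases, at positions -85 to -69 from the start.
Txnip: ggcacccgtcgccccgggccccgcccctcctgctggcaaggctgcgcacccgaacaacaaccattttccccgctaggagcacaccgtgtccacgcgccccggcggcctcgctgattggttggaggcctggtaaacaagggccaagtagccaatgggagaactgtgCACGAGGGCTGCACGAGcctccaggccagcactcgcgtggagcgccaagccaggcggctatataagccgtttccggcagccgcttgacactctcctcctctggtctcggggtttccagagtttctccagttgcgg
The same arrangement, searched on both strands, stood in 16 of 32851 promoter windows of this length (0.0487%), belonging to 15 of 27025 genes (0.0555%). Of these 15 genes, 5 were measured by a tested row under their own symbol or opposite it, in 7 rows, and Gm15441 was the single row called, against 0.543% over all rows tested. That row prompted the search, so its call is no support for the element. The row of Psd, opposite the NF-kB subunit gene Nfkb2, had 288, 300 and 258 counts with DENSpm, against 385, 442 and 436 with vehicle, and missed the threshold (log2 fold change -0.45 ± 0.15, adjusted p = 0.169). The row of Sync, opposite Rbbp4, a histone-binding protein gene, had a log2 fold change of 0.53 ± 0.21 (adjusted p = 0.279). These 3 were the rows of the 7 at an unadjusted p under 0.05. The rest had positive log2 fold changes, from 0.22 for Rbbp4 to 0.92 for Irak1bp1. Among them was Nfkb2's own row, at 0.40 (adjusted p = 0.722). The Txnip window also held CCAAT, the NF-Y core, at 2 places outside the element, and CCAAT stood in 37.4% of all windows. The promoter of Srr, the gene opposite the other reproducible row, held none of the sequences searched. These are matches of letters, not measured sites.

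Few rows were called between DENSpm and vehicle. Of 3315 rows tested, 18 (0.543%) passed an adjusted p of 0.05 with edgeR's quasi-likelihood test and Benjamini-Hochberg adjustment over all rows tested, 11 of them higher (0.332%) and 7 lower (0.211%). Only 7 of the 18 changed at least 2-fold, and their log2 fold changes, DENSpm over vehicle, lay between 0.587 and 2.2 in size. In each of the 18 the 3 DENSpm libraries lay wholly above or wholly below the 3 vehicle libraries, as they did in 524 of the 3315 rows tested (15.8%); the same libraries made the calls. Exons of another gene lay opposite 15 of the 18, and opposite 61.8% of the rows tested. At an unadjusted p under 0.05 there were 371 rows (11.2%), 205 higher and 166 lower. The called rows were also well-counted rows: when the rows tested were split into 4 equal classes by abundance, 15 stood in the most abundant class, with a median of 248 counts per library and a median standard error of 0.178 on the log2 scale, and 0 in the 2 least abundant classes, where the median standard errors were 0.897 and 0.604. At that precision a change of 2-fold in a low row was mostly not detectable.

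**Figure D1:**
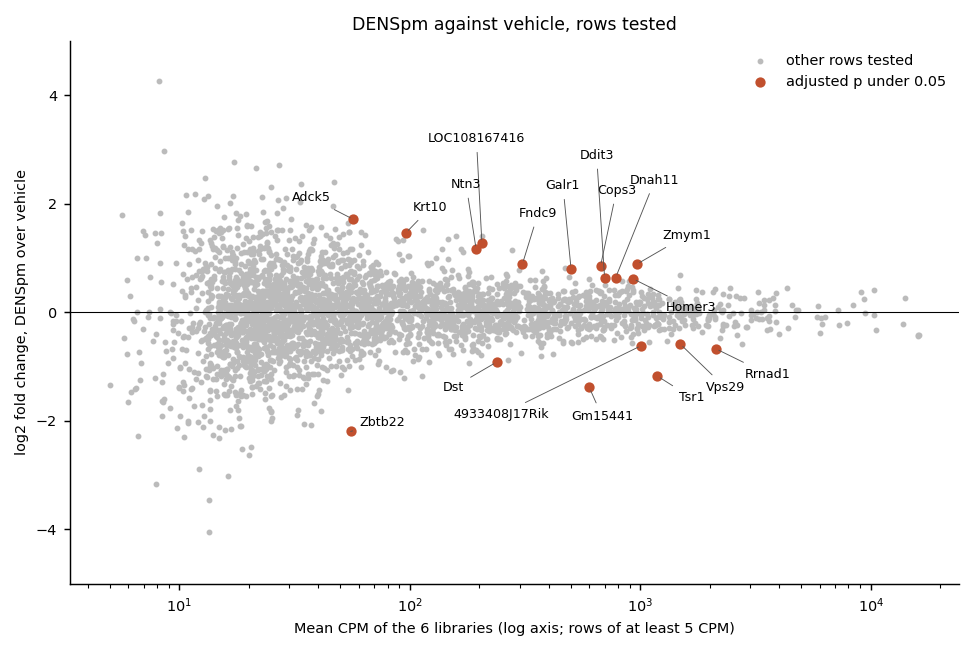
Log2 fold change of DENSpm over vehicle (vertical axis) against the mean CPM of the 6 libraries (log horizontal axis), with each point a row tested. Orange points are the 18 rows with an adjusted p under 0.05. Of the 3315 rows, 52 with a mean under 5 CPM are not drawn and 1 lies beyond the vertical axis. The spread of the grey points narrows toward high CPM, where most of the orange points lie.

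Totals ran from 462248 to 511295 counts in the DENSpm libraries and from 484241 to 625539 in the vehicle libraries. The second DENSpm library stood apart from its 2 partners: among 1148 rows with a mean of at least 100 CPM, 4.36% differed at least 2-fold from the mean of the other 2, against 0.697% and 1.66% for its partners and 0.523% to 1.05% for the vehicle libraries. Rows of ribosomal protein genes held 0.101% to 0.117% of the counts with DENSpm, against 0.137% to 0.184% with vehicle. The part of these differences in the results was not tested, and the values without the second DENSpm library are given where they change a call. Rows of defining genes of a beta cell line held counts: Ins2 had 146, 89 and 167 with DENSpm, against 194, 124 and 267 with vehicle. No exon of another gene lies opposite Ins2. With reads assigned to the wrong strand, these counts need not be reads of insulin mRNA. Of 12 marker rows of exocrine, ductal, immune, endothelial and stromal cells, 11 were at 0 in all 6 libraries, and Cd68 had 2 counts in the second DENSpm library and 0 in the rest. Rows of 5 of 8 genes of other islet cells were at 0. The summed counts of the 8 were 60, 20 and 32 with DENSpm, against 18, 20 and 22 with vehicle. The rows of these non-beta-cell markers were read by symbol, as no row had exons opposite one of these genes. With reads assigned to the wrong strand, such rows could be at 0 for an expressed gene. Absence of these cell types is thus not shown.

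The 2 rows that kept their call whichever library was left out both fell with DENSpm. Gm15441 (gene ID 100038464, on chromosome 3, 96555765 to 96566801, minus strand) shares 606 bases of exon with Txnip on the other strand. Its row had 272.5, 328.5 and 389.5 CPM with DENSpm, against 783, 880.3 and 948 CPM with vehicle, where CPM is the row's counts scaled to library size with TMM factors. Every DENSpm library lay under the lowest vehicle library, by a wide margin. Its mean was 330.2 ± 58.5 CPM with DENSpm and 870.3 ± 83.1 CPM with vehicle (SD, n = 3 each), a fold of 0.383 (log2 fold change -1.38 ± 0.17 SE, adjusted p = 1.16e-05). With 1 library left out, its log2 fold change lay between -1.51 and -1.27 and its adjusted p was at most 5.32e-04.

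Tsr1 (gene ID 104662, on chromosome 11, 74898071 to 74909342, plus strand) shares 1240 bases of exon with Srr. It encodes a maturation factor of the small ribosomal subunit, and Srr encodes serine racemase, which makes D-serine. This row had 676, 623 and 868 CPM with DENSpm, against 1567, 1801 and 1575 CPM with vehicle. The highest DENSpm library was thus well below the lowest vehicle library. Its fold was 0.442 (log2 fold change -1.18 ± 0.15, adjusted p = 1.16e-05), with log2 fold changes between -1.32 and -1.09 when 1 library was left out. The row of Srr itself, with Tsr1 opposite, is also well counted and had 3804, 3935 and 3999 CPM with DENSpm, against 4852, 5239 and 4502 CPM with vehicle. Here too the groups did not overlap, but the difference missed the threshold (log2 fold change -0.30 ± 0.12, adjusted p = 0.273). As both strands carry many counts at this locus, which of the genes the Tsr1 row reports cannot be told from these counts.

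**Figure D2:**
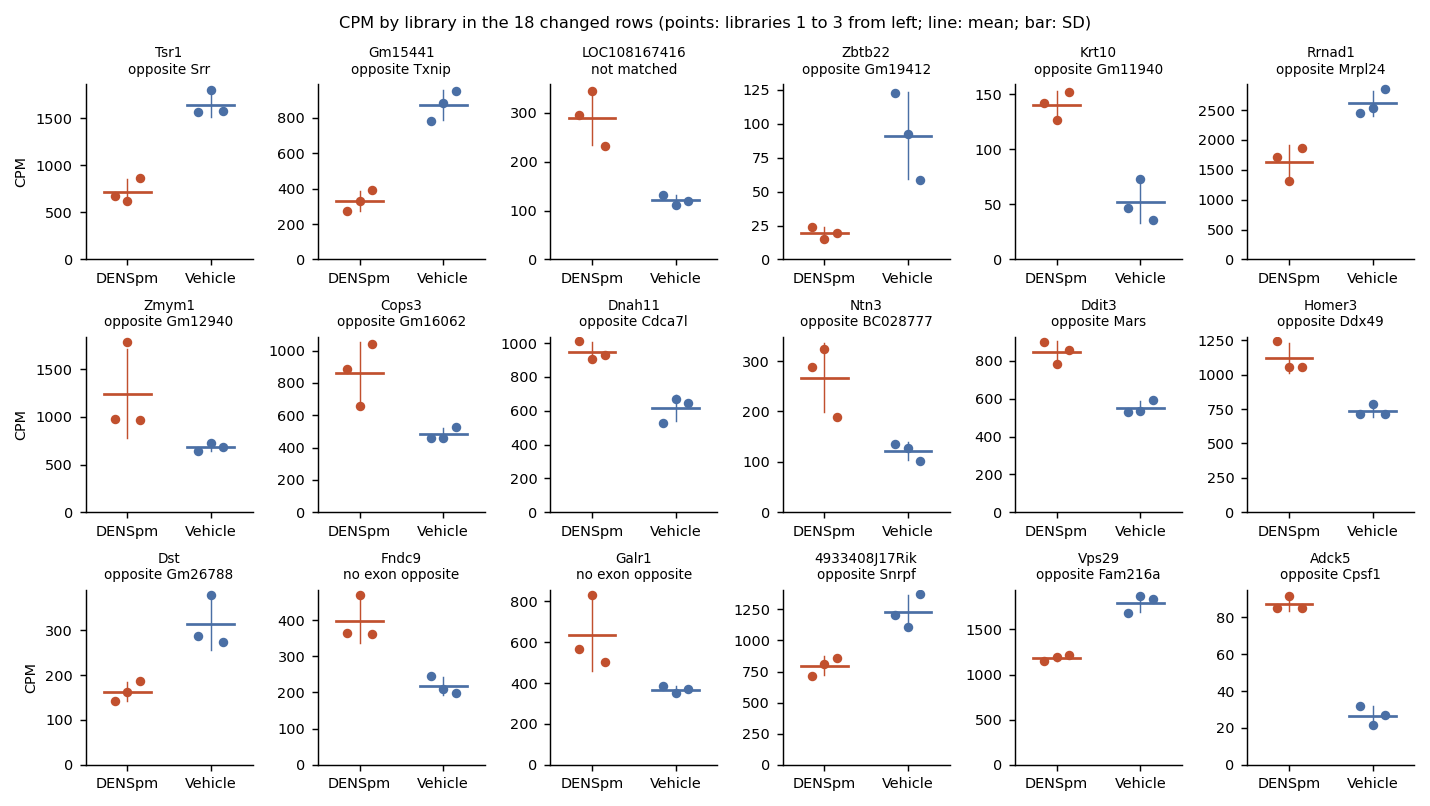
CPM of every library in the 18 rows with an adjusted p under 0.05, DENSpm at the left and vehicle at the right of each panel, with points for libraries 1 to 3, a line for the mean and a bar for the SD. Each vertical axis starts at 0 and has its own scale. In all 18 panels the 3 DENSpm points and the 3 vehicle points do not overlap. The second DENSpm point stands above its 2 partners in the panels of Zmym1, Galr1, Fndc9, Ntn3, LOC108167416 and Adck5, most clearly for Zmym1 and Galr1.

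The other 5 rows that fell with DENSpm lie opposite genes of mitochondrial translation, of splicing and of less known function. The row of Rrnad1 (chromosome 3, 87922601 to 87930717) lies opposite Mrpl24, a protein of the large subunit of the mitochondrial ribosome, and opposite Isg20l2, a nuclear exonuclease that acts in rRNA maturation. It had 1722, 1305 and 1858 CPM with DENSpm, against 2450, 2540 and 2852 CPM with vehicle (log2 fold change -0.67 ± 0.14, adjusted p = 0.0311). All 3 DENSpm values were lower, the second library most. The row of 4933408J17Rik (chromosome 10, 93589413 to 93605245) lies opposite Snrpf, one of the Sm proteins at the core of spliceosomal particles, whose own row held 0 to 5 counts. It had 713, 812 and 862 CPM with DENSpm, against 1201, 1111 and 1375 CPM with vehicle (-0.61 ± 0.14, adjusted p = 0.0406). These are moderate drops with a clear gap between the groups.

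The row of Vps29 (chromosome 5, 122354369 to 122364984), named for a subunit of the retromer that returns cargo from endosomes, lies opposite Fam216a. It had 1149, 1191 and 1216 CPM with DENSpm, against 1677, 1875 and 1839 CPM with vehicle (-0.59 ± 0.14, adjusted p = 0.0406), the smallest change among the called rows but one with tight groups. In the row of Dst (chromosome 1, 33908225 to 34308661), named for the cytoskeletal linker dystonin and opposite the unnamed genes Gm26788 and A930005N03Rik, the libraries had 142, 162 and 186 CPM with DENSpm, against 286, 379 and 274 CPM with vehicle (-0.92 ± 0.21, adjusted p = 0.0384). Both vehicle libraries nearest to DENSpm were still well above it. The row of Zbtb22 (chromosome 17, 33915904 to 33919325), named for a zinc finger protein, overlaps 47 bases of exon of Gm19412 and changed most in size. It rested on 11, 8 and 10 counts with DENSpm, against 66, 43 and 37 counts with vehicle (-2.20 ± 0.45, adjusted p = 0.0285), and the vehicle counts differed more among themselves than their lowest did from the highest DENSpm count.

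Among the 11 rows that rose, 3 lie opposite named genes of RNA metabolism, translation or growth control in moderate changes. The row of Ddit3 (gene ID 13198, chromosome 10, 127290774 to 127296288) is named for CHOP, a transcription factor of the integrated stress response, and overlaps 68 bases of exon of Mars, the methionyl-tRNA synthetase gene. It had 903, 786 and 856 CPM with DENSpm, against 532, 534 and 592 CPM with vehicle (log2 fold change 0.63 ± 0.14, adjusted p = 0.0324). All DENSpm libraries lay above all vehicle libraries. The row of Mars, with Ddit3 opposite, had 305, 375 and 320.3 CPM with DENSpm, against 374, 359 and 438 CPM with vehicle (-0.21 ± 0.18, adjusted p = 0.708), and there the groups overlapped.

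The row of Homer3 (chromosome 8, 70282827 to 70294361) is named for a scaffold protein of glutamate receptors and overlaps 874 bases of exon of Ddx49, a gene for a DEAD-box RNA helicase. It had 1247, 1055 and 1060.0 CPM with DENSpm, against 714, 788 and 712 CPM with vehicle (0.62 ± 0.14, adjusted p = 0.0324). The row of Dnah11 (chromosome 12, 117877982 to 118199043), named for an axonemal dynein, lies opposite Cdca7l, which encodes a partner of MYC and whose own row held 0 to 4 counts. It had 1012, 905 and 929 CPM with DENSpm, against 526, 672 and 649 CPM with vehicle (0.64 ± 0.14, adjusted p = 0.0324). In both rows the 3 DENSpm values are close together and all above vehicle.

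A further 5 of the rows that rose have exons opposite genes without an established name or overlap them only briefly. The row of Zmym1 (chromosome 4, 127047094 to 127061152), a zinc finger gene opposite Gm12940, had 981, 1783 and 973 CPM with DENSpm, against 639.5, 728 and 685 CPM with vehicle (0.88 ± 0.19, adjusted p = 0.0311). The second DENSpm library stood far above its partners, and without it the log2 fold change was 0.52 (adjusted p = 0.1). The row of Cops3 (chromosome 11, 59817795 to 59839838), named for a subunit of the COP9 signalosome and opposite Gm16062 and the nucleotidase gene Nt5m, had 887, 659 and 1040 CPM with DENSpm, against 461, 456 and 529 CPM with vehicle (0.85 ± 0.19, adjusted p = 0.0324). Here the second DENSpm library was the lowest, and the change without it was 1.00 (adjusted p = 0.00215). The row of Krt10 (chromosome 11, 99385254 to 99389364), a keratin gene opposite Gm11940, had 142, 127 and 152 CPM with DENSpm, against 46.5, 73.2 and 36.2 CPM with vehicle (1.46 ± 0.31, adjusted p = 0.0311).

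The row of Ntn3 (chromosome 17, 24203848 to 24209531), named for a netrin guidance cue and opposite BC028777, had 288, 323 and 189.8 CPM with DENSpm, against 136, 127 and 101 CPM with vehicle (1.16 ± 0.26, adjusted p = 0.0324). Without the second DENSpm library, the highest, its log2 fold change was 0.99 (adjusted p = 0.0725). The row of Adck5 (chromosome 15, 76576358 to 76595816), named for a putative kinase, overlaps only 14 bases of exon of Cpsf1, a subunit of the complex that cleaves and polyadenylates pre-mRNA. It had 39, 49 and 43 counts with DENSpm, against 17, 10 and 17 counts with vehicle (1.71 ± 0.41, adjusted p = 0.0416). Its groups were far apart, yet its adjusted p was 0.0596 or higher in each fit that left out 1 library.

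The last 3 rows that rose face no exon of another gene in the annotation used, or could not be matched to it. With reads assigned to the wrong strand, their counts need not be reads of the genes they are named for. The row of Galr1 (gene ID 14427) is named for a receptor of galanin, a neuropeptide that restrains insulin secretion. It had 567, 832.5 and 502 CPM with DENSpm, against 383, 351 and 368.5 CPM with vehicle (0.80 ± 0.19, adjusted p = 0.0402). The second DENSpm library was the highest, and without it the log2 fold change was 0.54 (adjusted p = 0.187). Fndc9 (chromosome 11, 46235531 to 46239872), a gene named for a fibronectin domain, lies within the body of a gene on the other strand but opposite none of its exons. It had 364, 470.4 and 362 CPM with DENSpm, against 245, 209 and 198 CPM with vehicle (0.89 ± 0.21, adjusted p = 0.0396), and 0.74 without the second DENSpm library (adjusted p = 0.0871). The row of LOC108167416, which was not matched to the annotation, had 294, 343.5 and 231 CPM with DENSpm, against 132, 112 and 119.7 CPM with vehicle (1.27 ± 0.24, adjusted p = 0.0141).

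How far each of the 18 rests on single libraries was read from fits that left out 1 library in turn while testing the same rows. The rows of Gm15441 and Tsr1 were called in all 6 such fits, and 4 rows, these 2 with Zbtb22 and Krt10, were called in at least 3. Without vehicle library 1, 2 or 3 there were 2, 3 and 3 calls. Without DENSpm library 1, 2 or 3 there were 3, 33 and 32 calls, which held 3, 13 and 15 of the 18 rows. DESeq2 called 47 rows, all 18 among them, and a fit of the 6 libraries alone called 4, of which 3 belonged to the 18.

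**Figure D3:**
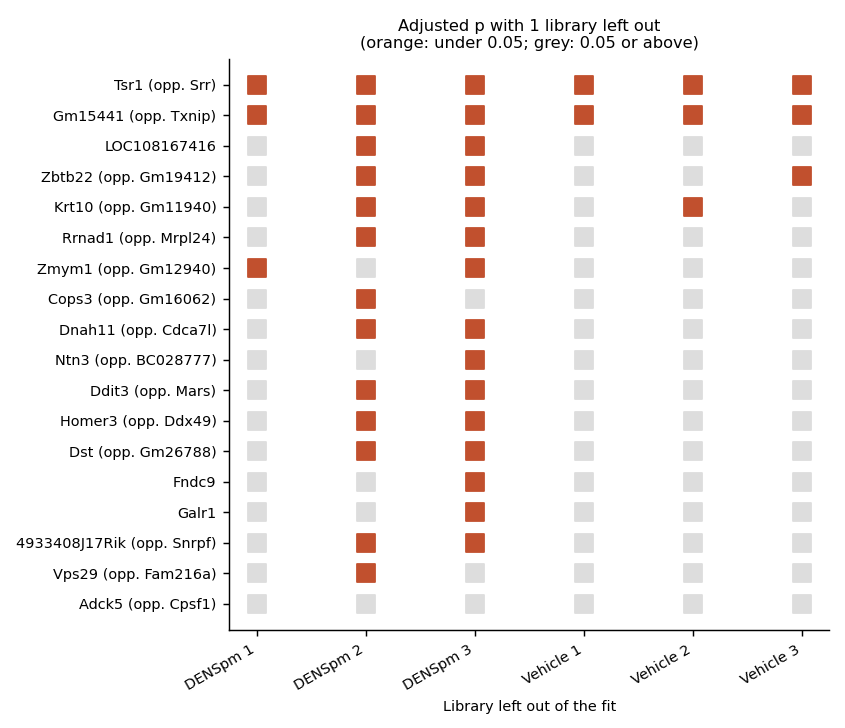
Calls of the 18 rows (vertical axis, with the gene opposite in brackets) in fits that left out the library named on the horizontal axis. Orange squares have an adjusted p under 0.05 and grey squares one of 0.05 or above. Only the rows of Tsr1 and Gm15441 are orange in all 6 columns, and the columns of DENSpm 2 and DENSpm 3 hold 13 and 15 orange squares.

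The polyamine pathway itself could hardly be read at this depth and strand. Of 29 rows of polyamine genes, 21 held a count in the 6 libraries, 8 were tested and 0 were called, against 0.543% of all rows tested, a share at which 8 rows would mostly hold none, with a median log2 fold change of -0.0836 against 0 over all rows tested. Odc1, the rate-limiting enzyme of synthesis, had 6, 2 and 6 counts with DENSpm, against 6, 0 and 8 with vehicle. Sat1, the acetyltransferase of catabolism, had 0, 0 and 8 counts with DENSpm, against 2, 0 and 2 with vehicle. Neither could show a difference, and the groups overlapped in both. The spermine oxidase Smox had 0, 0 and 0 counts with DENSpm, against 1, 0 and 0 with vehicle, and Paox, the acetylpolyamine oxidase gene opposite Echs1, had 0 in all DENSpm libraries, against 0, 2 and 0 with vehicle.

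The synthases were as thin: Srm, which makes spermidine, had 4, 0 and 3 counts with DENSpm, against 2, 6 and 2 with vehicle, and Sms, which makes spermine, had 0 in all DENSpm libraries, against 0, 0 and 4 with vehicle. The antizyme inhibitor gene Azin1, opposite Gm49077, had 2, 4 and 14 counts with DENSpm, against 6, 8 and 8 with vehicle, and the antizyme Oaz2 had 4, 7 and 4, against 7, 4 and 14. All of these overlapped between the groups. Oaz1, another antizyme, and Satl1 were at 0 in all 6 libraries. Of the arginases, which supply ornithine, Arg1 had 1, 9 and 0 counts with DENSpm, against 0 in all vehicle libraries, and Arg2, opposite Vti1b, had 42, 52 and 47, against 51, 36 and 71. The enzymes of hypusination, the spermidine-dependent modification of Eif5a, were Dhps, opposite Wdr83, with 33, 48 and 30 counts with DENSpm, against 41, 55 and 47 with vehicle, and Dohh, with 2, 0 and 2, against 1, 1 and 4. None of these was called.

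Eif5a, the factor so modified, had 13, 20 and 7 counts with DENSpm, against 23, 8 and 16 with vehicle, and its paralogue Eif5a2 had 4, 6 and 1, against 0, 1 and 2. Among transport genes, Slc3a2 had 30, 30 and 30 counts with DENSpm, against 39, 25 and 64 with vehicle, Atp13a3 had 2, 16 and 7, against 8, 10 and 10, Atp13a2 had 4, 0 and 0, against 0, 0 and 4, and Slc18b1 had 0 in all DENSpm libraries, against 0, 0 and 2. Groups overlapped in each of these rows. Mtap, which recycles the by-product of spermidine and spermine synthesis, had 2, 0 and 0 counts with DENSpm, against 0, 6 and 2 with vehicle. Oaz3 had 168, 163 and 194 counts with DENSpm, against 200, 185 and 261 with vehicle, and lies opposite Tdrkh. Mat2a, opposite Particl, makes the methyl donor from which the aminopropyl groups derive, and had 128, 152 and 156 counts with DENSpm, against 129, 139 and 174 with vehicle.

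Read by the gene opposite, the list had 6 rows, of which 3 were tested and 0 called. The row of Particl, which lies opposite 508 bases of exon of Mat2a, had 434, 538 and 581 CPM with DENSpm, against 753, 648 and 731 CPM with vehicle. The groups did not overlap, but the difference missed the threshold (log2 fold change -0.44 ± 0.16, adjusted p = 0.233), while with cytokines it was -0.68 ± 0.16 (adjusted p = 0.0289).

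Of 28 gene lists read by row symbol and by the gene opposite, 5 held a called row and 23 held none. The 23 include mitochondrially encoded genes and non-endocrine cell markers, which had 0 rows tested and could hold no call. Over all rows tested 0.543% were called, so that a single call, or none, in a list of this size says nothing about the list. Those with a called row were ChREBP and MondoA targets (Gm15441, opposite Txnip, 1 of 6 tested rows by the gene opposite), the integrated stress response (Ddit3, 1 of 32 tested by symbol, and by Mars opposite 1 of 6), ribosome biogenesis (Tsr1, 1 of 27 by symbol), mitochondrial translation and import (Rrnad1, 1 of 30 by the gene opposite) and RNA processing (4933408J17Rik lower and Adck5 higher, 2 of 28 by the gene opposite). Rows of the integrated stress response had a median log2 fold change of -0.333 by symbol and -0.068 by the gene opposite, against 0 over all rows tested. None of its other 31 rows by symbol was called, and 21 of the 32 had no exons opposite. ChREBP and MondoA targets had a median of -0.374 by symbol, over 7 rows, and -0.031 by the gene opposite, over 6. By symbol, rows of ribosomal protein genes had a median of -0.552, with 0 of 30 called and 21 of the 30 without exons opposite, and of -0.0813 by the gene opposite, over 9 rows. Endoplasmic reticulum chaperones and degradation factors had a median of -0.404 by symbol, over 14 rows, 8 of them without exons opposite. By the gene opposite it was 0.183, over 4 rows, with 0 called in both readings. With reads assigned to the wrong strand, rows without exons opposite may hold few reads of their own gene. The medians by symbol therefore give no direction for these lists.

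No row of a beta cell product passed the test, and the nearest to it were rows opposite Pcsk2. The rows of Pcsk2os1 and Pcsk2os2 both lie opposite Pcsk2, the proinsulin-processing convertase gene, and their counts cannot be told apart from reads of Pcsk2. Pcsk2os1 had 16890, 9831 and 14380 CPM with DENSpm, against 18640, 20250 and 16480 CPM with vehicle (log2 fold change -0.42 ± 0.15, adjusted p = 0.232), and Pcsk2os2 had 16550, 10440 and 13330 CPM, against 19190, 19890 and 16390 CPM (-0.45 ± 0.15, adjusted p = 0.183). The groups overlapped in both, the second DENSpm library was the lowest, and without it the log2 fold changes were -0.23 (adjusted p = 0.501) and -0.30 (adjusted p = 0.373). Without a filter on low counts both rows were called (adjusted p = 0.0363 and 0.0214). Ins2, the insulin gene with the higher counts of the pair, had a log2 fold change of -0.36 ± 0.38 (adjusted p = 0.785), and Ins1 had 8, 1 and 10 counts with DENSpm, against 11, 10 and 14 with vehicle, too few to be tested. Chromogranin A (Chga), a granule protein, had a log2 fold change of -0.21 ± 0.15 (adjusted p = 0.631). The 14 beta cell marker rows tested by symbol had a median of -0.197, and 11 of the 14 had no exons opposite. The rows of Ins1, Ins2 and Chga have none either. With reads assigned to the wrong strand, such rows may hold few reads of their own gene. These values therefore give no direction for insulin, Chga or the list.

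A row of another islet hormone stood out and was chosen after its values were seen. Gcg, the glucagon gene, had 26, 0 and 16 counts with DENSpm, against 0, 0 and 0 with vehicle. The 2 DENSpm libraries with counts stood above every vehicle library, and the second DENSpm library did not. It missed the threshold with all libraries (adjusted p = 0.117) and passed it without the second DENSpm library (adjusted p = 0.0229). With cytokines Gcg had 4, 16 and 2 counts with DENSpm, against 0, 4 and 0 with vehicle. With DFMO and no cytokines it had 0, 14 and 1 counts, so scattered counts were not particular to DENSpm. No exon of another gene lies opposite Gcg. With reads assigned to the wrong strand, its few counts need not be reads of glucagon mRNA.

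Whether the difference made by DENSpm depends on cytokines was asked with the libraries that received the cytokine mix, which share no library with the comparison above but entered the same fit of the spread. With cytokines, 44 of 3315 rows (1.33%) were called between DENSpm and vehicle, 19 higher (0.573%) and 25 lower (0.754%). Of the 18 rows called without cytokines, 17 had the same sign with cytokines, against 60.8% of all rows tested. Of the 18, 6 were also called, against 1.33% of all rows tested, and 15 had a smaller change. Rows picked for a large change in the setting without cytokines tend to change less elsewhere. No effect of cytokines is therefore read from the 15. The test of the difference between the 2 settings, an interaction term, called 0 of 3315 rows (0%) in edgeR and 0 in DESeq2, with 169 (5.1%) and 178 rows at an unadjusted p under 0.05. Across the 3315 rows the log2 fold changes in the 2 settings had a Pearson r of 0.181 and a Spearman coefficient of 0.226, a description across genes, which are not independent replicates.

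The 6 rows called in both settings were those of Gm15441, Tsr1, Rrnad1, Vps29, Homer3 and Ntn3. The row of Gm15441 had 506, 618 and 800.3 CPM with DENSpm and cytokines, against 1393, 1188 and 1548 CPM with vehicle and cytokines (log2 fold change -1.11 ± 0.17, adjusted p = 2.86e-04). The row of Tsr1 had 757, 645 and 809.8 CPM, against 1400.0, 1348 and 1588 CPM (-0.97 ± 0.15, adjusted p = 2.86e-04). In both the DENSpm libraries were again lower throughout. With cytokines the log2 fold change was -0.69 ± 0.14 in the row of Rrnad1 (adjusted p = 0.0103) and -0.62 ± 0.14 in that of Vps29 (adjusted p = 0.0205). It was 0.81 ± 0.14 in the row of Homer3 (adjusted p = 0.00174) and 1.13 ± 0.26 in that of Ntn3 (adjusted p = 0.0257).

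Of the 18 rows, 4 had an interaction at an unadjusted p under 0.05, against 5.1% of all rows tested, and none passed adjustment. The interaction contains the difference by which the 18 were picked, so low p-values among them are favoured by the choice. The row of Adck5 was the one with opposite signs: it had 23.2, 38.1 and 59.0 CPM with DENSpm and cytokines, against 71.9, 63.7 and 72.4 CPM with vehicle and cytokines, a log2 fold change of -0.80 ± 0.40 (interaction adjusted p = 0.445). In the row of Dst the log2 fold change was -0.11 ± 0.21 with cytokines (interaction adjusted p = 0.88). For Ddit3 it was 0.15 ± 0.14, with 816, 867 and 963 CPM with DENSpm and cytokines, against 829.9, 753 and 806 CPM with vehicle and cytokines (interaction adjusted p = 0.942). For Zmym1 it was 0.31 ± 0.19 (interaction adjusted p = 0.942). The row of Mars, opposite Ddit3, had -0.91 ± 0.18 with cytokines (adjusted p = 0.00748), and its interaction did not pass adjustment either (adjusted p = 0.88).

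**Figure D4:**
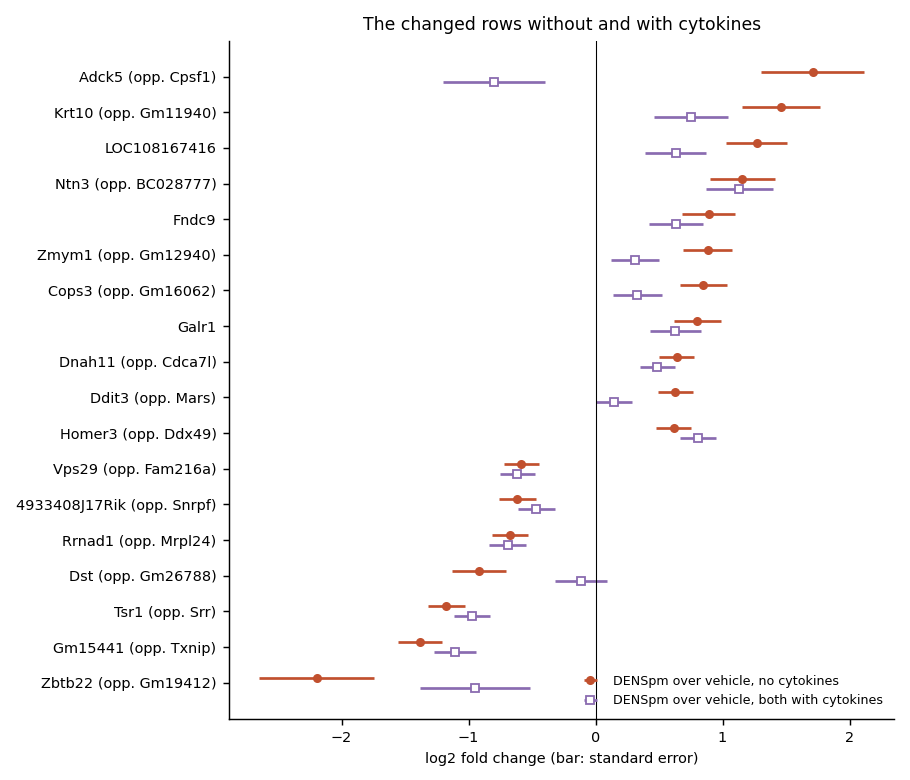
Log2 fold change of DENSpm over vehicle, with standard error bars, in the 18 rows changed without cytokines (filled circles) and in the same rows with cytokines in both groups (open squares). The genes opposite are in brackets. In 17 rows both symbols lie on the same side of 0, and the exception is the row of Adck5, at 1.71 and -0.80.

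DENSpm and DFMO both deplete polyamines by different routes, and were compared directly in a fit of all 18 libraries. This comparison shares its DENSpm libraries with the one against vehicle, so values are set side by side and no overlap is counted. Both drugs are also set against the same vehicle libraries, which helped to pick the 18 rows. Likeness between the drugs over vehicle is thus partly built in. The DENSpm libraries helped to pick the 18 rows too, so low p-values against DFMO in these rows are favoured by the choice. Between DENSpm and DFMO, 414 of 3713 rows (11.2%) were called, 217 higher (5.84%) and 197 lower (5.31%) with DENSpm. The row of Gm15441, opposite Txnip, had 272.5, 328.5 and 389.5 CPM with DENSpm, against 360.3, 302 and 340.4 CPM with DFMO. These values overlapped and the log2 difference was -0.01 ± 0.17 (adjusted p = 0.974), while DFMO over vehicle was -1.38 ± 0.17 (adjusted p = 6.05e-08). The row of Tsr1, opposite Srr, had 676, 623 and 868 CPM with DENSpm, against 1394, 1337 and 1431 CPM with DFMO, without overlap (-0.94 ± 0.14, adjusted p = 2.38e-06), and DFMO over vehicle was -0.25 ± 0.13 (adjusted p = 0.278).

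Other rows of the 18 differed from DFMO as well. The row of Krt10 was lower with DENSpm than with DFMO, at 142, 127 and 152 CPM against 288, 390.4 and 228 CPM (-1.10 ± 0.27, adjusted p = 0.00368), although both drugs raised it over vehicle (2.55 ± 0.29 for DFMO, adjusted p = 1.91e-08). The row of Fndc9 had a difference of 0.10 ± 0.19 (adjusted p = 0.83), with 0.78 ± 0.20 for DFMO over vehicle (adjusted p = 0.00705). The row of Galr1, which has no exons opposite, was higher with DENSpm than with DFMO (1.03 ± 0.19, adjusted p = 1.50e-04). So were the rows of Ddit3 (0.55 ± 0.15, adjusted p = 0.00868), Dnah11 (0.74 ± 0.15, adjusted p = 3.58e-04), Cops3 (1.07 ± 0.19, adjusted p = 7.26e-05), Zmym1 (1.45 ± 0.21, adjusted p = 4.08e-06), Adck5 (1.95 ± 0.52, adjusted p = 0.00867) and LOC108167416 (2.25 ± 0.31, adjusted p = 7.68e-07). The rows of Rrnad1 (-0.56 ± 0.14, adjusted p = 0.00387), Dst (-0.997 ± 0.219, adjusted p = 0.00127) and Zbtb22 (-2.22 ± 0.41, adjusted p = 1.45e-04) were lower. The differences in the rows of Ntn3 (0.67 ± 0.26), 4933408J17Rik (-0.38 ± 0.14), Vps29 (-0.31 ± 0.14) and Homer3 (0.27 ± 0.14) did not pass, with adjusted p between 0.0713 and 0.259.

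Among the rows of lowest p between the drugs, the following were lower or higher with DENSpm than with DFMO. The row of Igf2os, opposite exons of Igf2, the gene of an insulin-like growth factor, and of Gm49394, had 2289, 1805 and 1967 CPM with DENSpm, against 11840, 11550 and 7472 CPM with DFMO (-2.35 ± 0.15, adjusted p = 8.59e-16), and 2283, 2260 and 1745 CPM with vehicle. The row of P2ry6, named for a receptor of uridine nucleotides and without exons opposite, was at -1.66 ± 0.13 (adjusted p = 1.37e-12). The row of Nol3, opposite 4931428F04Rik, was at -1.78 ± 0.16 (adjusted p = 5.34e-11). These 3 rows were lower with DENSpm than with DFMO. The row of Rufy2, opposite the splicing regulator gene Hnrnph3, had 11460, 11770 and 12010 CPM with DENSpm, against 3696, 3536 and 4255 CPM with DFMO (1.62 ± 0.11, adjusted p = 1.08e-14), and over vehicle the DENSpm difference was 0.41 ± 0.11 (adjusted p = 0.0923). The row of Kdm1b, opposite the chromatin protein gene Dek, was at 1.12 ± 0.11 (adjusted p = 6.30e-10), that of Lcorl, opposite the condensin subunit gene Ncapg, at 1.25 ± 0.13 (adjusted p = 9.56e-10), and that of A230070E04Rik, which was not matched to the annotation, at 1.32 ± 0.13 (adjusted p = 4.13e-10). The row of Pcsk2os1, opposite Pcsk2, was at -0.98 ± 0.13 (adjusted p = 6.94e-07), with 0.55 ± 0.13 for DFMO over vehicle (adjusted p = 0.00326).

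**Figure D5:**
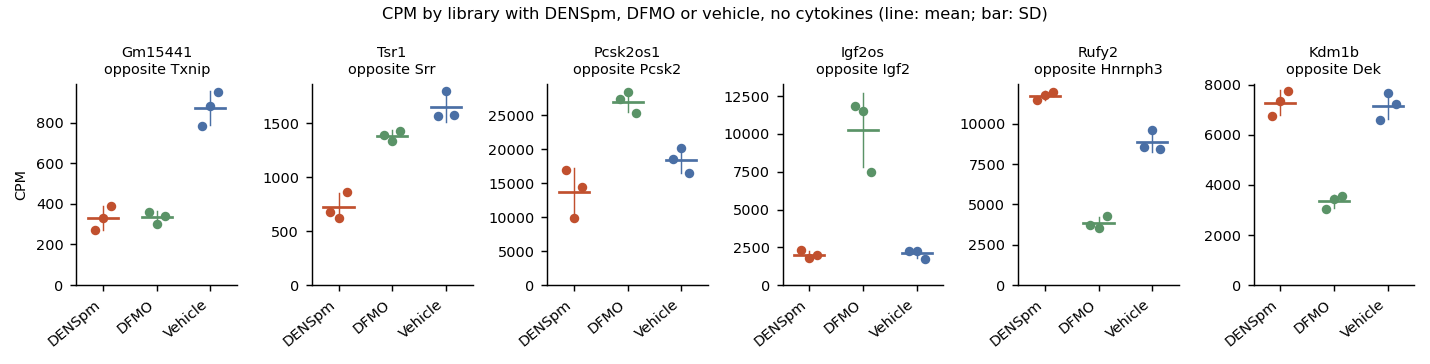
CPM of every library in 6 rows with DENSpm, DFMO or vehicle, all without cytokines, with a line for the mean, a bar for the SD and vertical axes that start at 0. In the row of Gm15441 the DENSpm and DFMO points overlap below vehicle. In the row of Tsr1 the DENSpm points lie far below those of DFMO and vehicle, and in those of Igf2os and Kdm1b the DFMO points alone stand away from vehicle.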

How the data were processed

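RNA of MIN6 cells was sequenced from poly(A)-selected, strand-specific TruSeq libraries, per the labels' protocols. The authors deposited raw counts per gene. HTSeq, FastQC, DESeq2 and the build mm10 are named in the submitters' processing notes. The sources used here give no versions, aligner, annotation or strand setting. The deposited normalised tables were not used. All 26 symbols altered by date conversion were restored from the gene ID. Rows were matched by symbol to GENCODE M21 (GRCm38), and the gene opposite is the one with the largest exon overlap on the other strand.

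The count tables hold 24557 rows, 12779 of them with a count in the 6 libraries. Entries of 2 outnumbered entries of 1 (8452 against 5102), so halved counts were an alternative. Tests used edgeR 4.0.16 in R 4.3.3 (robust quasi-likelihood F test, TMM factors, filterByExpr by group, Benjamini-Hochberg adjustment, threshold 0.05) on the 12 libraries of the DENSpm table, or on 18 for DENSpm against DFMO. Rows tested held 96.6% and 97.1% of the counts, with common biological coefficients of variation of 0.296 and 0.306. CPM use the TMM factors of the 18-library fit and counts in the rows tested there. Each standard error is the log2 fold change over the root of F. Simulated data with known changes were used to test the code. Alternatives included DESeq2 1.42.0, other filters and size factors, the replicate block, the 6 libraries alone and leaving out each library.

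All called rows of the main comparison are named, as are polyamine genes with a count, insulin and Pcsk2 rows, up to 4 rows of lowest p per direction against DFMO, and partner rows. A result of 1 row against DFMO is not reported here. The genes, lists and tests were chosen with earlier results of these data known. Promoter sequences are RefSeq's, on GRCm38.p6, and 11 of the 19 genes opposite called rows had a window.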

Additional observations from a re-analysis of the deposited data

How the results depend on the processing

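The 18 rows called between DENSpm and vehicle (11 higher, 7 lower) became 47 with DESeq2 (27 and 20), 30 without a filter on low counts (18 and 12, with 14 of the 18 kept), 31 on halved counts (18 and 13) and 4 in a fit of the 6 libraries alone (2 and 2). Leaving out each library gave 2 to 33 rows, 0 to 20 higher and 2 to 15 lower. Other size factors and a stricter filter gave 18 each, and rows summed by the gene opposite gave 13. With cytokines, the 44 rows became 99 with DESeq2, 67 on halved counts, 74 with 6 libraries and 7 to 24 with a library left out. The 414 rows between DENSpm and DFMO ranged from 267 to 362 with a library left out (137 to 188 higher, 130 to 175 lower), and those lower numbered 131 without a filter. The interaction called 0 rows under every alternative. The 18 rows, Ins2, Pcsk2os1 and Pcsk2os2 kept their sign over vehicle under every alternative. Of rows that were not called, Azin1 (-1.14 to 0.36), Arg2 (-0.14 to 0.14), Eif5a (-0.43 to 0.32), Atp13a3 (-0.89 to 0.34), Kdm1b (-0.02 to 0.08) and Igf2os (-0.15 to 0.03) changed sign with a library left out.

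Replicate numbers gave no sign of pairing: deviations of same-numbered libraries of different groups correlated between -0.0727 and 0.0824. Those of differently numbered libraries correlated between -0.0762 and 0.0939. With 3 libraries per group, a weak pairing could have been missed. With the replicate number as a block, 23 rows were called between DENSpm and vehicle, all 18 among them, 40 with cytokines, 414 against DFMO and 0 for the interaction. Depth limits the reading of low rows, whose median standard error in the least abundant class was 0.897 on the log2 scale. Intervals of this kind cover the spread between these libraries only.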

Other observations

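Without the second DENSpm library, 20 rows were called that are not among the 18. The 5 given here were chosen after their values were seen and stand for no group of genes. The row of 6430562O15Rik, opposite Mrps27, a protein of the small subunit of the mitochondrial ribosome, had 487, 422 and 571 counts with DENSpm, against 350, 337 and 408 counts with vehicle. Its log2 fold change was 0.71 without that library (adjusted p = 0.00938) and 0.57 with it (adjusted p = 0.0696). The row of Actl6a, opposite Mrpl47 of the large subunit, had 197, 229 and 283 counts with DENSpm, against 171, 102 and 193 counts with vehicle (0.82 and 0.76, adjusted p = 0.0209 and 0.0504). The rows of Ncaph2 and Hnrnpu lie opposite Sco2 and Cox20, both assembly factors of cytochrome c oxidase. Ncaph2 had 506, 358 and 717 counts with DENSpm, against 413, 353 and 502 counts with vehicle (0.71 and 0.47, adjusted p = 0.0156 and 0.283), and Hnrnpu had 788, 723 and 999 counts, against 711, 541 and 799 counts (0.57 and 0.44, adjusted p = 0.0209 and 0.174). The row of Neurl2, opposite the lysosomal protease gene Ctsa, was lower, with 138, 192 and 130 counts with DENSpm, against 328, 243 and 286 counts with vehicle (-0.91 and -0.77, adjusted p = 0.0191 and 0.061). Another row opposite Ctsa, that of Pltp, had 420, 550 and 597 counts with DENSpm, against 577, 499 and 777 counts with vehicle. With all libraries its log2 fold change was -0.10 ± 0.15 (adjusted p = 0.871).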
